A study of Mus musculus with 8 samples.

Results

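The step from pre-hemogenic endothelium (pre-HE) to cells undergoing endothelial-to-hematopoietic transition (EHT) was described in WT embryos, gene family by gene family. The members were the 497 WT cells that the deposited annotation names EHT (326 cells) or pre-HE (171 cells), of 8423 WT cells and 15168 cells in all. The study profiled CD31+ cells sorted from the aorta-gonad-mesonephros (AGM) of mouse embryos at E10.5 by CITE-seq, which counts RNA molecules and antibody tags in the same cell. Each library was a pool of 2-5 embryos. The WT group had 5 libraries (WT 1 to WT 5, strain C57BL/6). The paper also gives the name WT to Meis1-floxed littermates that lack Cre. Cells of WT 5 have names starting with Mf in the deposited counts, unlike the other WT libraries. Whether WT 5 came from such littermates was not determined. The Meis1-flox/VE-Cre group, labelled Meis1-knockout, had 3, in which Meis1 is floxed and Cre is expressed from the promoter of VE-cadherin, so that deletion is aimed at endothelium and at the cells that descend from it. No agent was given to either group. Arterial endothelial cells (aEC, 888 WT cells) served for comparison of levels.

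Blood stem and progenitor cells of the embryo arise from endothelial cells in the wall of the dorsal aorta. Hemogenic endothelial cells switch on the transcription factor Runx1, loosen their junctions, round up and leave the vessel wall as clusters of blood cells. Along this path, endothelial signalling through VEGF, Notch, BMP and junction proteins gives way to blood transcription factors, blood-cell surface proteins and cell division.

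EHT numbered 64, 45, 31, 68 and 118 cells in WT 1 to WT 5, and pre-HE 39, 18, 11, 87 and 16. Raw counts of unique molecular identifiers (UMIs), each standing for 1 captured RNA molecule, were summed over the cells of a type within a library. The pre-HE sums held 154254 to 1264693 UMIs and the EHT sums 1196374 to 2557665. Levels are given below as CPM, counts per 1e+06 UMIs of that sum, so that a single UMI in the smallest pre-HE sum stands for 6.48 CPM. WT 5 was the shallowest WT library, with a median of 12721 UMIs per cell over all its cells against 26572 to 28553 in the others. No cell barcode was shared between libraries among the 497 cells, and 10 EHT cells and 0 pre-HE cells were called doublets.

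The annotation was checked against marker genes after each cell was thinned to 5000 UMIs. Cdh5, the VE-cadherin gene, had a UMI in a mean of 98.1% of cells in pre-HE and 39.6% in EHT, against 5.93% of Myeloid cells, which should lack it. Spi1, the gene of the blood factor PU.1, had a UMI in 62.4% of cells in EHT and 0.743% in pre-HE. Without thinning Spi1 was found in 94.1% of EHT, 1.43% of pre-HE and 1.23% of aEC cells. Ptprc, which encodes CD45, had a UMI in 10.7% of EHT cells and 53.9% of Myeloid cells. Cd44 and Procr had UMIs in 24.5% and 29.5% of cells in pre-HE and in 30.7% and 22.5% in EHT. Median depth before thinning was 12884 UMIs in pre-HE, 25630 in EHT and 39214 in Myeloid. The clusters were drawn from this RNA and named from such genes, so these shares describe the names and are no test of them.

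EHT cells yielded more RNA than pre-HE cells of the same library. The median UMIs per cell were 12250, 12534, 15263, 13771 and 8852 in pre-HE of WT 1 to WT 5, and 28944, 34875, 39461, 31902 and 13526 in EHT. In aEC they were 20550, 21624, 21911, 20189 and 9705, so pre-HE lay below aEC and EHT above it in each library. The ratio of EHT to pre-HE averaged 2.27-fold (log2 1.18 ± 0.34, SD, n = 5 libraries), ranged from 1.53-fold in WT 5 to 2.78-fold in WT 2, and was above 1 in 5 of 5 libraries. The two-sided exact sign-flip permutation p over libraries was 0.0625, which is the lowest value 5 libraries can give. The median number of genes per cell was 1.38-fold higher, and the median mitochondrial share differed by a mean of -0.912 percentage points (EHT minus pre-HE), lower in 5 of 5 libraries.

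Across the transcriptome, 8467 genes were tested with edgeR's quasi-likelihood test with library as a block, at a Benjamini-Hochberg adjusted p under 0.1. Of these, 61.6% were called, 31.6% higher and 30.0% lower in EHT. The clusters had been drawn from the same RNA, so these calls describe the clusters and are no independent test of them. The counts for each family below are to be read against these shares. The families were 29 lists with 671 genes, of which 670 were in the table and 557 passed the filter on low counts and were tested. A gene could pass this filter through its level in 1 type alone. If near 0 in the other type, it could then be called in 1 direction only. Counts of members called therefore describe the families and are no test of them. Because EHT cells held more UMIs, the scale matters. On the share-of-UMIs scale used here the median log2 fold change of all genes was 0.04, with 2675 genes higher and 2541 lower. Counted as UMIs per cell, a scale added after the data were seen, the median was 1.31 and the split became 6655 higher (78.6%) and 702 lower (8.29%), 86.9% in all. A decrease called on both scales is therefore a decrease in share and in UMIs per cell, and 813 genes lower in share were higher per cell.

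**Figure D1:**
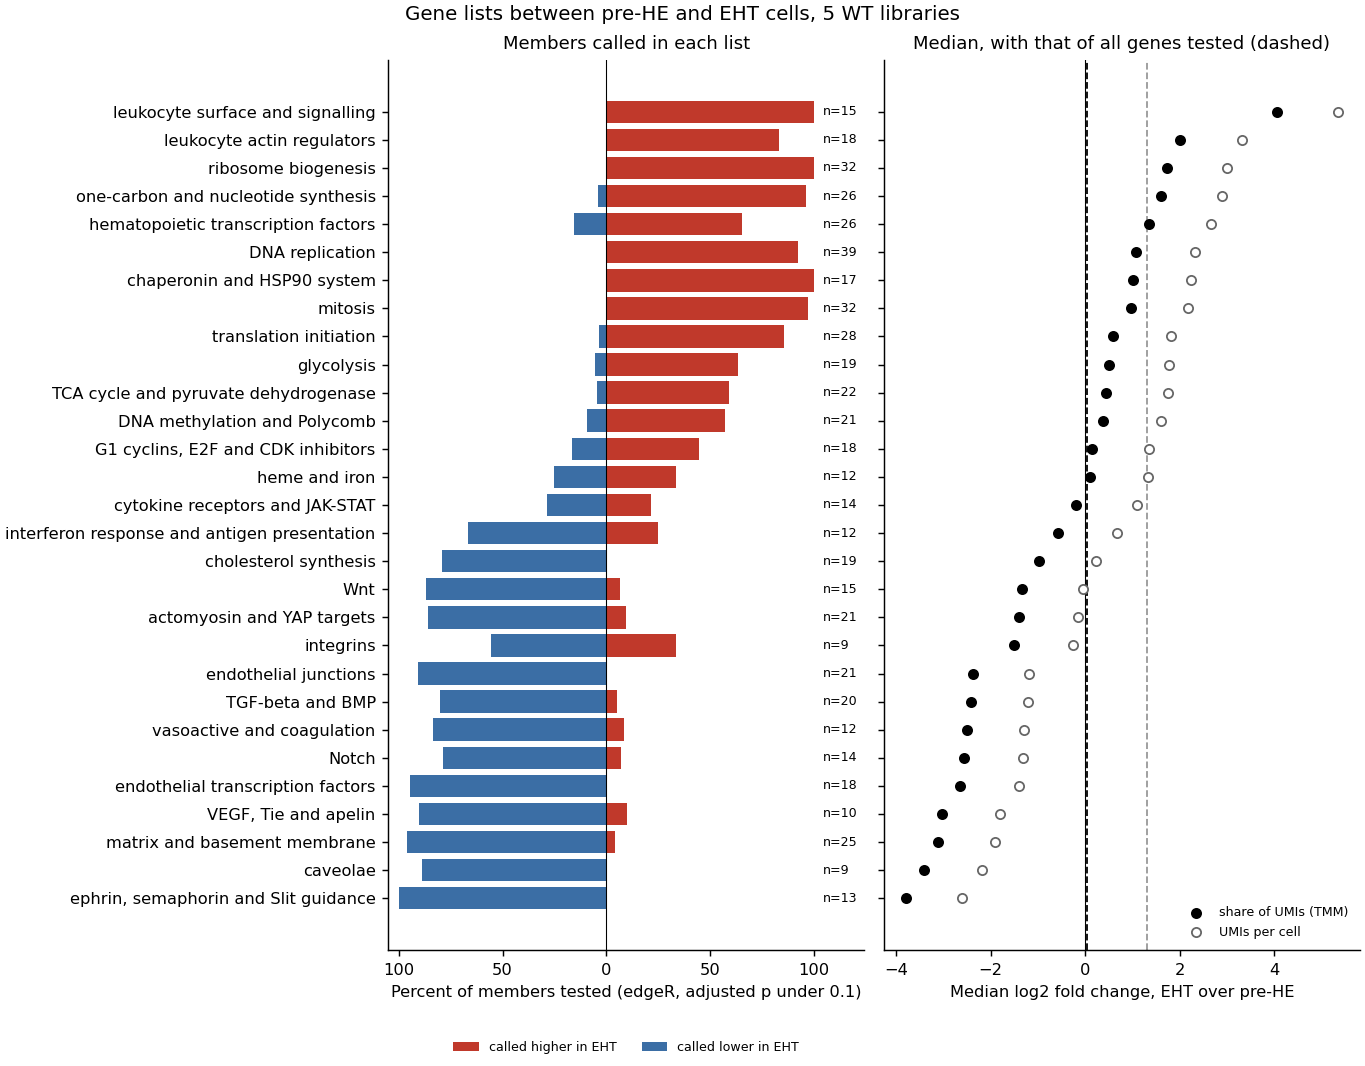
Gene families between pre-HE and EHT cells of 5 WT libraries. Left, percent of tested members called higher (red) or lower (blue) in EHT by edgeR, with the number tested at the right edge; right, the median log2 fold change of each family as a share of UMIs (filled) and per cell (open), with dashed lines at the medians of all genes tested, 0.04 and 1.31. Families run from leukocyte surface and signalling, with 15 of 15 higher, to ephrin, semaphorin and Slit guidance, with 13 of 13 lower.

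Hematopoietic transcription factors rose in part. Of 29 in the table, 26 were tested, 17 rose and 4 fell with a median log2 fold change of 1.36, and per cell 24 were higher and 1 lower. Their summed level went from 1558 ± 214 CPM in pre-HE to 2806 ± 229 CPM in EHT (SD, n = 5), 1.81-fold, against 1061 CPM in aEC. The pre-HE sum lay above the aEC sum in 5 of 5 libraries, and Mecom, described next, made up part of that excess.

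Myb, required for definitive blood cell formation, stood at 5.53, 0, 0, 0 and 0 CPM in pre-HE of WT 1 to WT 5 and at 191, 177, 122, 144 and 151 CPM in EHT. The groups did not overlap, as for 36.5% of all genes tested. In UMIs, Myb had 3 in pre-HE and 1471 in EHT, a ratio of the summed shares of 123 (95% exact interval 42.1 to 599, counting error only). The 3 pre-HE UMIs came from 1 of 171 cells, and the interval does not cover the spread between cells. Mecom, which encodes the transcription factor EVI1 of blood stem cells, fell. Its pre-HE levels were 404, 341, 357, 281 and 379.8 CPM and its EHT levels 43.9, 61.4, 57.7, 61.8 and 67.3 CPM, a log2 fold change of -2.55 ± 0.13 (SE; edgeR adjusted p = 2.3e-17). EHT levels of Mecom were close to the aEC mean of 49.7 CPM, so of the 3 types compared pre-HE alone had a high level.

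Within this list other members were chosen for their roles after their values were seen. Hlf, a factor of stem cell programs, rose from a mean of 2.20 to 101 CPM, and Mycn, a MYC-family transcription factor gene, from 7.36 to 158 CPM. Cebpb, a myeloid factor, rose from 18.5 to 274 CPM and Ikzf2 from 31.2 to 154 CPM. Lmo2, a partner of Tal1 and Gata2 in a blood-forming complex, was not called, at 338 CPM in pre-HE and 330 CPM in EHT. Lyl1 and Hhex were not called either, at 101 and 103 CPM in pre-HE and 110.5 and 105 CPM in EHT. All 3 were called higher per cell. Gata2 fell as a share of UMIs, with a log2 fold change of -0.57 ± 0.19, but was called higher per cell, at 0.69. Gata1, Klf1 and Cebpa, factors of erythroid and granulocytic cells, had 0 UMIs in pre-HE and 21, 15 and 21 in EHT, too few for the test.

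Leukocyte surface and signalling genes showed the highest median of all families. Of 22 in the table, 15 were tested and 15 rose, with a median log2 fold change of 4.05. Members near 0 in pre-HE could pass the filter only through EHT and could then only rise. All 22 had a higher pooled share in EHT, and 5 had 0 UMIs in pre-HE. The summed level went from 275 ± 74.7 to 1279 ± 167 CPM, against 258 CPM in aEC. Rgs18, a regulator of G-protein signalling in blood cells, had 0 CPM in all 5 pre-HE sums and 63.2, 32.6, 69.4, 24.6 and 34.8 CPM in EHT. Adgrg1, an adhesion G-protein receptor of blood stem cells, rose from 6.56 to 153 CPM and Cd47, which protects cells from phagocytosis, from 97.2 to 411 CPM. The phosphatase gene Ptpn6 rose from 6.67 to 100.0 CPM. These 3 were chosen after their values were seen.

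The antibody tags took no part in the clustering and give a measure that the choice of cells did not use. WT 4 had no tag counts, and CD44 had counts in WT 5 alone. CD43, the protein of Spn, had mean counts per cell of 51.8, 55, 37.4 and 8.31 in pre-HE of WT 1, WT 2, WT 3 and WT 5 and of 511, 533, 353 and 160 in EHT. The within-library ratio was 9.87, 9.69, 9.43 and 19.2 (mean log2 3.52 ± 0.50, SD, n = 4). CD41, the protein of Itga2b, was 8.83-, 6.83-, 11.9- and 27.7-fold higher, and CD117, the protein of Kit, 5.26-, 3.97-, 7.73- and 14.5-fold higher. Mean CD117 counts in pre-HE, at 35, 41.4, 13.4 and 4.31, lay below the 52, 48.4, 22.6 and 8.27 of the pooled vEC clusters. CD41 in pre-HE also lay below vEC in each of these libraries, while CD43 lay above it. For all 3 tags EHT exceeded pre-HE in 4 of 4 libraries, and by mean counts EHT exceeded Myeloid in each of them. Medians differ for CD41 in WT 5, where the EHT mean was 36.3 but the median 11, against a Myeloid median of 12. By medians plus 1 count, CD41 was 7.02-fold higher in EHT than in pre-HE over the 4 libraries, against 11.9-fold by means.

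CD45 and CD27 moved less. CD45 was 1.54-, 1.55-, 1.83- and 2.00-fold higher in EHT (mean log2 0.78 ± 0.18). Its mean counts in EHT were 70.6, 96.5, 53.7 and 8.36, against 59.8, 76.7, 33.9 and 9.32 in the pooled cells of the clusters named vEC and 922, 954, 485 and 44.1 in Myeloid cells. CD45 on EHT cells was above vEC in WT 1, WT 2 and WT 3, below it in WT 5, and below Myeloid in all 4 libraries. CD27 was 2.67-, 1.81-, 2.52- and 2.79-fold higher, and CD44 5.06-fold higher in WT 5. For each of the 5 tags with 4 libraries the two-sided exact sign-flip p was 0.125, the smallest possible, so no tag could reach 0.05, and it remained 0.125 after adjustment over 5 tags. EHT cells also held more tag counts of all kinds. As a share of all tag counts, CD41 and CD43 were higher in EHT in 4 of 4 libraries (mean log2 1.00 and 0.94) and CD117 in 2 of 4 (0.22), while CD45 and CD27 were lower in 4 of 4 (-1.79 and -1.30).

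**Figure D2:**
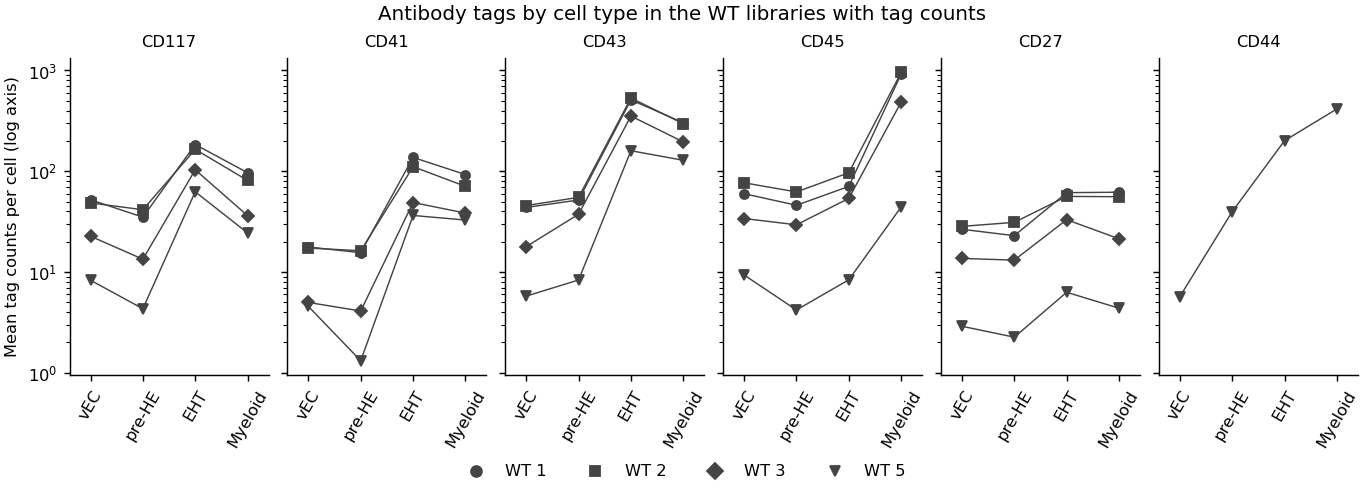
Mean antibody tag counts per cell (log axis) in the pooled vEC clusters, pre-HE, EHT and Myeloid cells, 1 line for each WT library with counts for that tag. CD117, CD41 and CD43 were highest in EHT in each of the 4 libraries. CD45 in EHT lay below Myeloid. It was above vEC in WT 3, at 53.7 against 33.9, and below vEC in WT 5, at 8.36 against 9.32.

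Genes of leukocyte actin remodelling rose with them. Of 21 in the table, 18 were tested, 15 rose and none fell (median log2 2.01). Rac2, the GTPase of blood cells that drives actin assembly, stood at 3.69, 0, 0, 0.791 and 6.44 CPM in pre-HE and at 179, 135, 108, 69.6 and 143 CPM in EHT (log2 5.92 ± 0.33). The groups did not overlap, and WT 4 was the lowest EHT library. Coro1a, a leukocyte actin-binding protein chosen after its values were seen, rose from 3.20 to 312 CPM. The summed level was 1.63-fold higher at 3881 CPM, against 3402 CPM in aEC. Of these sums Pfn1, a general actin-binding protein, held 1578 CPM in pre-HE and 1812 in EHT.

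Endothelial actomyosin genes and targets of the mechanosensitive factor YAP changed the other way. Of 24 in the table, 21 were tested, 18 fell and 2 rose (median log2 -1.40). As UMIs per cell the median was -0.16 and 8 fell while 4 rose. Tead1, the DNA-binding partner of YAP, fell from 68.2, 60.7, 123, 58.5 and 51.5 CPM to 0.482, 2.51, 0.836, 1.56 and 4.89 CPM (log2 -5.01 ± 0.34). Yap1 fell from 53.3 to 6.91 CPM and its target Cyr61 from 86.5 to 4.20 CPM, both chosen after their values were seen. Tpm2, a tropomyosin, rose from 7.37, 0, 19.4, 35.6 and 6.44 CPM to 50.6, 56.4, 51, 47.3 and 38.6 CPM (log2 1.36 ± 0.31). Tropomyosins thus differed in direction, as Tpm1 and Tpm4 fell by 1.30 and 1.03 on the log2 scale of shares but were not called per cell.

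Integrins tie cells to matrix and to one another. Of the 20 genes 9 were tested, 5 fell and 3 rose (median log2 -1.51), while per cell 4 were lower and 4 higher (median -0.27). Itga5, the fibronectin receptor subunit, fell from 60.8, 65.4, 71.3, 77.5 and 64.4 CPM to 15.4, 12.5, 13.4, 17.2 and 18.5 CPM (log2 -2.10 ± 0.21). Itga4, a subunit used by blood cells, rose from 1.84, 14, 13, 10.3 and 19.3 CPM to 100.3, 96.5, 76.1, 84.1 and 77.1 CPM (log2 3.20 ± 0.27). Neither gene's groups overlapped. Itga2b and Itgb3, which pair as the platelet fibrinogen receptor, rose by 1.58 and 2.41 on the log2 scale, and Itga1 and Itgav fell by 4.01 and 2.68. The summed integrin share was 1.99-fold lower, from 958 to 478 CPM, in 5 of 5 libraries.

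Cytokine receptors and the JAK-STAT pathway had no common direction. Of the 26 genes 14 were tested, 3 rose and 4 fell, with a median log2 of -0.20 that became 1.10 per cell. Kit, the stem cell factor receptor, rose from 14.7, 4.67, 13, 17.4 and 12.9 CPM to 162, 155, 218, 181 and 136 CPM (log2 3.56 ± 0.20). Cxcr4, the receptor for CXCL12, fell from 40.5, 51.4, 19.4, 55.3 and 96.6 CPM to 0.482, 0.626, 0, 1.56 and 1.63 CPM (log2 -5.63 ± 0.38). The lowest pre-HE library for Cxcr4, WT 3, still lay above all 5 EHT libraries. Flt3, Il7r and Csf2rb had 0 UMIs in pre-HE and 114, 81 and 70 in EHT, below the filter.

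Levels of blood-lineage markers moved with these gene groups. The summed level of 12 macrophage markers lay between 0 and 23.3 CPM in pre-HE and between 139 and 226 CPM in EHT. Of the EHT UMIs, most came from Lyz2 (736) and Tyrobp (572), while Adgre1, which encodes F4/80, had 2 and Ms4a7 0. The summed level of 9 granulocyte markers went from 0 to 4.67 CPM up to 149 to 276 CPM, and 2 genes, Prtn3 (1305 UMIs) and Mpo (574 UMIs), carried it, with Ctsg, Camp and Ngp at 0 and S100a8 and S100a9 at 1 UMI each. UMIs of the macrophage list were found in 293 of 326 EHT cells and those of the granulocyte list in 259. The 8 megakaryocyte markers summed to 13 to 34 CPM in pre-HE and to 77.7 to 90.7 CPM in EHT. By pooled share 4 of them were higher in EHT and 3 lower, with Gp6 at 0. Of their 62 pre-HE UMIs, 38 lay in 5 cells. The 9 erythroid markers overlapped, at 55.3 to 185 and 57.7 to 240.5 CPM, with Slc4a1 at 0. Mast cell markers reached at most 4.34 CPM in either type, mesenchyme markers 45.4 CPM in pre-HE and 25.1 CPM in EHT, and lymphoid markers, carried by Ebf1, 71.3 and 11.7 CPM. The part of other cell types in the family values was not tested.

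Single cells carried both programs. With each cell thinned to 5000 UMIs, a mean of 46.4% of EHT cells had UMIs of at least 1 endothelial gene (Cdh5, Kdr or Tek) and at least 1 blood gene (Runx1, Spi1, Myb or Ptprc), with a range of 39.1% to 59.7% over libraries and 155 of 325 cells in all. Blood genes alone were found in 47.4% of EHT cells and endothelial genes alone in 4.31%. In pre-HE 2.60% had both and 97.4% endothelial genes alone. Myeloid cells, which should lack the endothelial genes, had both in 7.89%, with the highest shares, 15.2% and 11.4%, in WT 4 and WT 5. These were also the libraries with the highest EHT shares, at 59.7% and 49.2%. The share depended on depth, at 36.8% when thinned to 3000 UMIs and 90.8% unthinned.

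**Figure D3:**
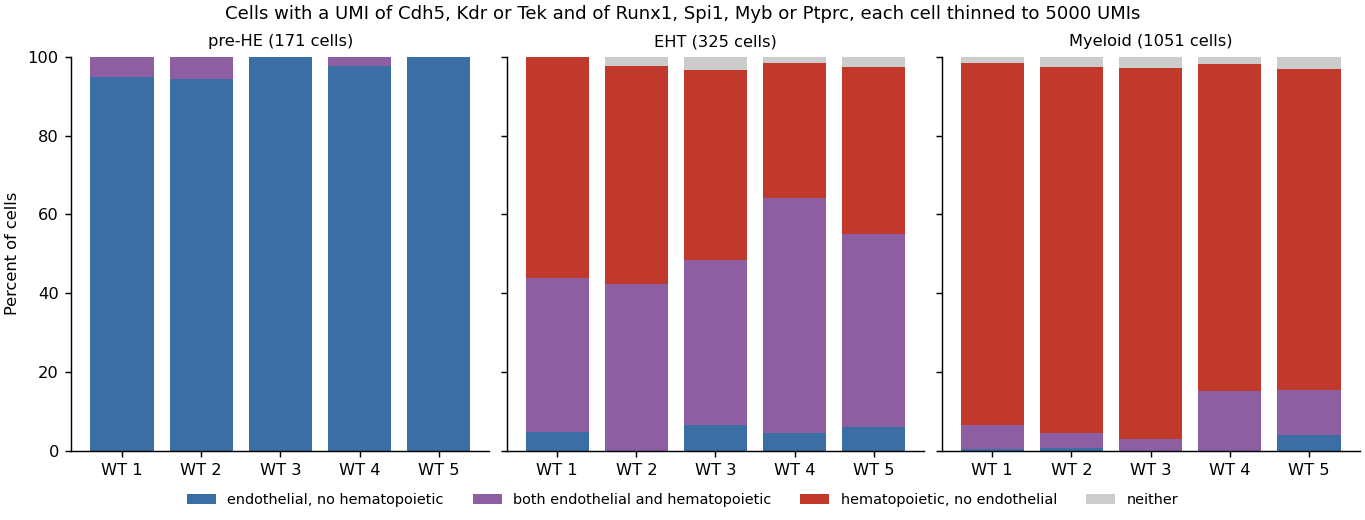
Percent of pre-HE, EHT and Myeloid cells in each WT library with UMIs of endothelial genes only (blue), both groups (purple), blood genes only (red) or neither (grey), each cell thinned to 5000 UMIs. Both groups together were found in 39.1% to 59.7% of EHT cells and in 0% to 5.56% of pre-HE cells.

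Genes of DNA replication rose as a family. Of the 40 genes 39 were tested, 36 rose and none fell, with a median log2 fold change of 1.07 and a range from 0.14 to 2.78. All 6 subunits of the MCM2-7 helicase, which unwinds DNA, rose by 0.80 to 1.37 on the log2 scale. The summed level went from 1943 ± 304 to 3530 ± 165 CPM, 1.83-fold, against 2261 CPM in aEC. Mcm10, which activates the helicase, stood at 5.53, 0, 0, 4.74 and 19.3 CPM in pre-HE and at 33.3, 38.2, 35.9, 35.6 and 45.1 CPM in EHT (log2 2.78 ± 0.36, edgeR adjusted p = 7.1e-08). The groups did not overlap, with WT 5 highest in both.

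Mitotic genes behaved alike. Of 32 tested 31 rose and none fell (median log2 0.97), and the summed level went from 3529 ± 752 to 6298 ± 697 CPM, against 4241 CPM in aEC. Bub1b, a kinase of the spindle checkpoint, stood at 27.6, 14, 58.3, 9.49 and 12.9 CPM in pre-HE and 63.2, 61.4, 63.5, 63.3 and 55.9 CPM in EHT (log2 1.73 ± 0.27). The groups overlapped through WT 3, whose pre-HE level rests on 11 cells. Top2a, the topoisomerase that untangles chromosomes, rose from 185 to 419 CPM. Ccnb2 was the exception, at 83.1 CPM in pre-HE and 102 CPM in EHT and not called.

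Both families are known to be controlled through cell cycle elements in their promoters, so their promoters were read. RefSeq promoter windows (GRCm38.p6, 250 bases before to 50 after each start) were given for 31 of the 40 DNA replication genes and 27 of the 32 mitotic genes. An E2F-type site, searched as TTTCCCGC or TTTGGCGC on both strands, was in 10 of 35 DNA replication promoters (28.6%), 0 of 28 mitotic promoters and 514 of 32851 promoters in all (1.56%). A CHR-type element, searched as TTTGAA or TTCGAA on both strands, was in 22 of 28 mitotic promoters (78.6%), 6 of 35 DNA replication promoters (17.1%) and 6316 of all promoters (19.2%). A match describes letters in a window and is not a bound site. The 250 bases before the start are printed in lower case with matches in capitals, for the gene named from each family and for the 2 called members of each with the most matches. Ties were broken by the order of gene names, and promoters on 1 chromosome were left out of this choice. Mcm6 (chr1:128359706-128359955, minus strand) and Cdc6 (chr11:98907901-98908150, plus strand) show the E2F type, with the nearest match 47 and 138 bases before the start, and Mcm10 (chr2:5012792-5013041, minus strand) holds no match.
Mcm6: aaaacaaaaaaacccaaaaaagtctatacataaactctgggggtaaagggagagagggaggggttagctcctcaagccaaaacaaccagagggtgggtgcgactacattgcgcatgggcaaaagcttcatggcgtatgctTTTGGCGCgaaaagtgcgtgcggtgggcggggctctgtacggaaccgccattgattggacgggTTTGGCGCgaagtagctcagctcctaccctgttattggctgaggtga
Cdc6: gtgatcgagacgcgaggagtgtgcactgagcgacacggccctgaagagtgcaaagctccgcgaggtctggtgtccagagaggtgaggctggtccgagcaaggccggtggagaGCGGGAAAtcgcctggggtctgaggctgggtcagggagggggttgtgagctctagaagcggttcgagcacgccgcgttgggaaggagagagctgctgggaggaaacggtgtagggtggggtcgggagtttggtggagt
Mcm10: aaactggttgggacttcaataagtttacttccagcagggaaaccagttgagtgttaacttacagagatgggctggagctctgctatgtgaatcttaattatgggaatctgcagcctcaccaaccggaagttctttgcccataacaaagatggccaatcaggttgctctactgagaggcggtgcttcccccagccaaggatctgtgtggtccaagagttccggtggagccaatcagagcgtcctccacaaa
The CHR type is shown by Bub1b (chr2:118597961-118598210, plus strand), Top2a (chr11:99024190-99024439, minus strand) and Ccnf (chr17:24251410-24251659, minus strand), with 1, 4 and 2 matches and the nearest 188, 23 and 14 bases before the start.
Bub1b: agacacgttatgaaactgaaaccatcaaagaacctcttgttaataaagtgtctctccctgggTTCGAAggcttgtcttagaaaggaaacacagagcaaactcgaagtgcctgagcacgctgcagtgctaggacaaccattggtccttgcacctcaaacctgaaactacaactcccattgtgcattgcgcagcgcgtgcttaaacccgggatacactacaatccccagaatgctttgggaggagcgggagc
Top2a: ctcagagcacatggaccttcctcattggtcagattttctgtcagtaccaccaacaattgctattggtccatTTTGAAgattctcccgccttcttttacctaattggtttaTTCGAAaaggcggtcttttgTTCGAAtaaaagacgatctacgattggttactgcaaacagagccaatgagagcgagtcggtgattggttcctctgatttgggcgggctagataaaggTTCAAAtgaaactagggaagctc
Ccnf: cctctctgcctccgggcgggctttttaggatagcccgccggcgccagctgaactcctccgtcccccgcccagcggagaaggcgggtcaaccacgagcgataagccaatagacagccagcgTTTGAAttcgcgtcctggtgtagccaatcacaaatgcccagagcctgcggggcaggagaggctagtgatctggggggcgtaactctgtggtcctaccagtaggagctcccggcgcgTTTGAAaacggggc
All 6 genes rose, Mcm6 by 0.80 ± 0.13, Cdc6 by 1.00 ± 0.27, Ccnf by 1.45 ± 0.29 and Top2a by 1.33 ± 0.13 on the log2 scale. Mcm10, with no match in its window, had the largest change of the 39 replication genes tested.

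Of the 22 regulators of entry into the cycle, 18 were tested, 8 rose and 3 fell, with a median log2 of 0.13, close to that of all genes. Per cell 15 were higher and 1 lower (median 1.35). Cdkn1c, which encodes the cell cycle inhibitor p57, fell from 1371, 1167, 1634, 1575 and 1416 CPM to 372, 434, 265, 458 and 275 CPM (log2 -1.95 ± 0.11). EHT levels of Cdkn1c were near the aEC mean of 311 CPM. Cdk6, a G1 kinase, rose from 5.53, 9.34, 6.48, 9.49 and 32.2 CPM to 81, 67, 51.8, 34.4 and 75.5 CPM (log2 2.41 ± 0.29). The lowest EHT library, WT 4, was just above the highest pre-HE library, WT 5. Cyclins of the D type differed, as Ccnd2 rose from 158 to 387 CPM while Ccnd1 and Ccnd3 were not called, at 59.9 and 213 CPM in pre-HE and 50.3 and 204 CPM in EHT. Myc rose from 16.3 to 62.9 CPM.

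Ribosome biogenesis genes, which make and process ribosomal RNA in the nucleolus, all rose. This held for 32 of 32 tested, with a median log2 of 1.74 and a range from 0.50 to 2.57. Their summed level was 3675, 4103, 3974, 3932 and 5105 CPM in pre-HE of WT 1 to WT 5 and 14935, 14270, 14552, 13753 and 13661 CPM in EHT, 3.44-fold higher on average, against 5828 CPM in aEC. Wdr12, of the complex that matures the large subunit, stood at 33.2, 18.7, 58.3, 30 and 38.6 CPM in pre-HE and at 186, 179.8, 209, 163 and 199.8 CPM in EHT (log2 2.46 ± 0.17). The groups were far apart. The nucleolar proteins Npm1 and Ncl, chosen after their values were seen, rose by 1.80 and 2.13 on the log2 scale; Npm1 has many processed copies in the genome, so its reads may be split.

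Translation initiation factors rose less. Of 28 tested 24 rose and 1 fell (median log2 0.58), and the summed level rose 1.56-fold. Eif5a, the hypusine-bearing elongation and initiation factor, rose from 652, 682, 609, 785 and 849.7 CPM to 2382, 2355, 2316, 2249 and 2295 CPM (log2 1.74 ± 0.09). Eif3f was the 1 member that fell, from 606, 551, 532, 621 and 631 CPM to 506, 494, 409.6, 507 and 529 CPM (log2 -0.23 ± 0.09, edgeR adjusted p = 0.037), and it was higher when counted per cell. This call was lost with DESeq2, without the filter on low counts, without the replicate block and without WT 3. Asking for at least 15 cells for each sum leaves out WT 3 alone and is the same fit. Of the other eIF3 subunits, Eif3h was not called (460 and 417 CPM) while Eif3a and Eif3b rose by 0.58 and 1.02 on the log2 scale.

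Chaperones of protein folding rose throughout. In this list 17 of 18 genes were in the table and 17 of 17 rose (median log2 1.00), while Cct6a was not analysed here. The 7 subunits of the TRiC chaperonin measured rose by 0.65 to 1.36 on the log2 scale. Hspd1, the mitochondrial chaperonin HSP60, rose from 282, 233, 149, 278 and 354 CPM to 1621, 1575, 1436, 1380 and 1413 CPM (log2 2.54 ± 0.11). Its partner Hspe1 rose by 1.79. Stress genes induced by cell dissociation went mainly the other way, with 6 of 8 tested lower and 2 higher, Egr1 and Hspa1a, and summed levels of 399 to 989.7 CPM in pre-HE and 293 to 563 CPM in EHT. Per cell 3 of these 8 were lower and 4 higher.

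**Figure D4:**
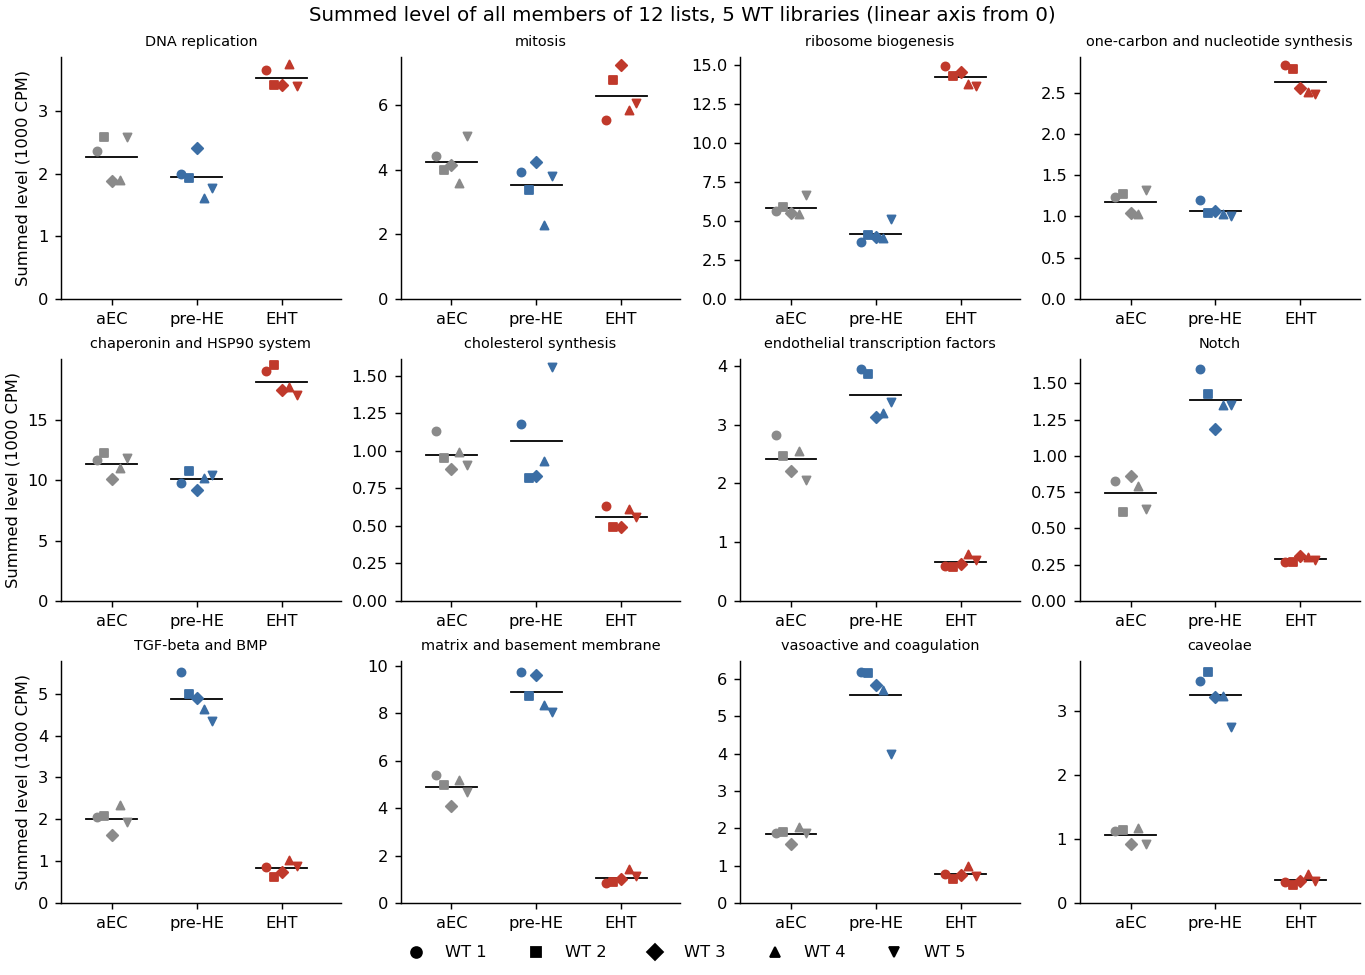
Summed level of all members of 12 families (1000 CPM, axes from 0) in aEC, pre-HE and EHT of the 5 WT libraries, with a line at the mean. Ribosome biogenesis went from 4158 CPM in pre-HE to 14234 CPM in EHT, while matrix and basement membrane went from 8909 to 1078 CPM, with pre-HE above aEC in 5 of 5 libraries.

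Genes of one-carbon metabolism and nucleotide synthesis, which supply building blocks for DNA and RNA, rose with few exceptions. Of 26 tested 25 rose and 1 fell, with a median log2 of 1.60, and the summed level went from 1067 ± 76 to 2632 ± 165 CPM, against 1177 CPM in aEC. Phgdh, the entry enzyme of serine synthesis, rose from 9.21, 4.67, 0, 7.91 and 0 CPM to 369, 396, 312, 317 and 270.4 CPM (log2 5.61 ± 0.22, edgeR adjusted p = 2.3e-20). The next enzymes of that path, Psat1 and Psph, rose by 2.95 and 1.26, and Shmt1 and Mthfd1 of the folate cycle by 3.27 and 2.68. Impdh1 was the 1 member lower in share, from 31.3, 42, 51.9, 25.3 and 32.2 CPM to 17.8, 11.3, 10, 18.4 and 19 CPM (log2 -0.99 ± 0.27), and per cell it was not called, at 0.21. Impdh2, the other IMP dehydrogenase, rose from 113 to 291 CPM, so the pair changed in opposite directions on the scale of shares.

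Glycolytic genes rose in part, with 12 of 19 tested higher and 1 lower (median log2 0.50). Hk2, a hexokinase of proliferating cells, rose from 3.69, 4.67, 0, 7.91 and 0 CPM to 109, 63.3, 91.1, 75.5 and 97.7 CPM (log2 3.95 ± 0.30). Hk1 was not called, at 38.6 and 40.2 CPM. Slc2a1, the GLUT1 glucose transporter of endothelium, fell from 243, 285, 45.4, 403 and 605 CPM to 49.2, 50.7, 34.3, 75.9 and 58.1 CPM (log2 -2.44 ± 0.17). Its groups overlapped because of pre-HE of WT 3. The summed level of 4559 ± 612 CPM in EHT stayed below the 6087 CPM of aEC, from 3021 ± 1093 CPM in pre-HE. Slc16a1, which exports lactate, and Ldha, which makes it, rose by 2.67 and 1.33.

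Of 22 genes of the TCA cycle and pyruvate dehydrogenase tested, 13 rose and 1 fell (median log2 0.44), with a summed level of 2119 CPM in pre-HE and 2702 CPM in EHT. Idh3a, the catalytic subunit of NAD-dependent isocitrate dehydrogenase, rose from 40.5, 37.3, 32.4, 41.1 and 57.9 CPM to 139, 127, 109, 92.7 and 95.6 CPM (log2 1.43 ± 0.17). Of the 4 subunits of succinate dehydrogenase, Sdhd rose by 0.58 while Sdha, Sdhb and Sdhc were not called, with log2 fold changes of -0.09, 0.07 and 0.23.

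Cholesterol synthesis was the metabolic family with a lower share in EHT, while as UMIs per cell its median log2 was 0.22, with 5 members higher and 2 lower. As shares, 15 of 19 tested fell and none rose (median log2 -0.98). The summed level was 1181, 822, 830, 935 and 1558 CPM in pre-HE and 631, 495, 495, 610 and 560 CPM in EHT, against 973 CPM in aEC, and the groups did not overlap. Insig1, a sterol sensor whose transcript tracks the activity of the SREBP pathway, fell from 40.5, 18.7, 45.4, 23.7 and 32.2 CPM to 6.75, 6.26, 7.52, 7.82 and 10.9 CPM (log2 -1.95 ± 0.30). It was 1 of the 2 lower on both scales, with Fdft1, which encodes squalene synthase.

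In the heme and iron family, 4 of 12 tested rose and 3 fell (median log2 0.11), near the 31.6% and 30.0% of all genes. Per cell 10 were higher and 1 lower (median 1.33). Alas1, the housekeeping enzyme that starts heme synthesis, fell from 55.3, 28, 71.3, 48.2 and 83.7 CPM to 10.6, 7.52, 16.7, 13.3 and 9.23 CPM (log2 -2.19 ± 0.24). The ferritin heavy chain gene Fth1 rose from 1250, 1195, 1316, 1456 and 1217 CPM to 1709, 1754, 1514, 1766 and 1659 CPM (log2 0.43 ± 0.08). The light chain gene Ftl1 fell by 0.66 in share, though it was called higher per cell.

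Among 21 DNA methylation and Polycomb genes tested, 12 rose and 2 fell (median log2 0.37), and the summed level rose from 1573 to 2281 CPM. Dnmt3b, a de novo DNA methyltransferase, rose from 20.3, 46.7, 13, 10.3 and 38.6 CPM to 204, 158, 155, 109.9 and 179 CPM (log2 2.96 ± 0.21). The other de novo enzyme, Dnmt3a, was not called, at 78.7 and 84.2 CPM, although both groups lay above its aEC mean of 11.7 CPM. The maintenance pair Dnmt1 and Uhrf1 rose by 1.29 and 1.79. Of the TET enzymes, which oxidise methylcytosine, Tet1 rose by 1.44, Tet2 fell by 1.45 in share and was not called per cell, and Tet3 was not called, with a log2 fold change of -0.11.

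Interferon response and antigen presentation genes were called lower in share more often than higher, with 8 of 12 tested falling and 3 rising (median log2 -0.59). Per cell the median was 0.67 with 1 lower and 8 higher. The summed level was 2131 ± 160 CPM in pre-HE and 1971 ± 243 CPM in EHT, and was higher in EHT in 2 of 5 libraries. Ifitm1, a membrane protein of the interferon-induced family, rose from 20.3, 28, 25.9, 27.7 and 38.6 CPM to 504, 243, 415, 677 and 567 CPM (log2 4.35 ± 0.17). Its relatives Ifitm2 and Ifitm3, at 794 and 516 CPM in pre-HE, fell in share by 0.38 and 0.57, though both were higher per cell. The Ifitm genes are similar in sequence and counts may be split among them. H2-D1, a class I antigen-presenting gene, fell in share from 151, 131, 77.8, 117 and 116 CPM to 75.2, 48.9, 52.7, 50.4 and 45.1 CPM (log2 -1.11 ± 0.15), and was not called per cell, at 0.15. Isg15 was the 1 member lower on both scales, from 27.2 to 2.61 CPM.

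Endothelial identity genes fell, from levels in pre-HE that were above those of aEC. Of 22 endothelial transcription factors 18 were tested, 17 fell and none rose, with a median log2 of -2.64. Per cell 13 fell and 3 rose. The summed level dropped 5.31-fold, from 3504 ± 377 to 661 ± 85.4 CPM, with 2422 CPM in aEC. Epas1, which encodes the hypoxia factor HIF-2 alpha, fell from 186, 205, 194, 176 and 238 CPM to 3.37, 1.25, 4.18, 7.04 and 4.34 CPM (log2 -5.44 ± 0.22). Sox17, an arterial factor chosen after its values were seen, fell from 516, 523, 506, 499 and 367 CPM to 15.4, 7.52, 20.9, 23.5 and 20.1 CPM (log2 -4.73 ± 0.16). The ETS factors differed, as Ets1 fell by 2.16 while Ets2 was not called, at 46.1 and 39.9 CPM, and Erg and Fli1 fell by 0.45 and 0.75 in share but were called higher per cell.

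Junction genes, which seal endothelial cells to one another, fell in 19 of 21 tested and rose in none (median log2 -2.37), with 14 lower and 4 higher per cell, and the summed level dropped 6.78-fold. Gja5, the gap junction gene connexin 40 of arteries, fell from 466, 714, 428, 463 and 431 CPM to 4.34, 3.76, 5.85, 10.9 and 5.43 CPM (log2 -6.21 ± 0.18). Its mean in aEC was 2.17 CPM, so of the 3 types compared pre-HE alone had a high level. Gja4, connexin 37, fell by 5.40 and the tight junction gene Cldn5 by 3.39. Gja1, connexin 43, and Jam3 were not called, at 32 and 32.5 CPM in pre-HE and 27.8 and 34.5 CPM in EHT. Among the catenins that anchor cadherins, Ctnnb1 fell by 1.32 and Ctnna1 by 1.83, of which Ctnnb1 was not called per cell.

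Receptors and ligands of the VEGF, Tie and apelin systems followed. Of 10 tested 9 fell and 1 rose (median log2 -3.03), and the summed level dropped 9.35-fold, from 2718 to 306 CPM. Nrp1, a co-receptor for VEGF and semaphorins, fell from 1067, 980.3, 862, 829 and 1004 CPM to 42.4, 18.2, 38.4, 66.5 and 63 CPM (log2 -4.33 ± 0.16). The main VEGF receptor Kdr fell by 3.27 and the angiopoietin receptor Tek by 2.89. Ligands fell too, Vegfa by 3.26 and Vegfc by 2.92. Nrp2 was the 1 member that rose, from 13.3 to 20 CPM (log2 1.28 ± 0.45), with overlapping groups.

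In the Notch pathway, 14 of the 18 genes were tested, of which 11 fell, 1 rose and 2 were not called (median log2 -2.57). Per cell 9 were lower and 4 higher (median -1.32). The summed level was 1600, 1424, 1186, 1354 and 1352 CPM in pre-HE, 272, 271, 307, 303 and 283 CPM in EHT and 745 CPM on average in aEC. Among ligands, Dll4 fell from 136 to 5.69 CPM and Jag1 from 134 to 2.91 CPM. The receptors Notch1 and Notch4 fell by 2.41 and 3.96, and Notch2 was below the filter. Of the targets, Hey2 stood at 142, 112, 149, 68 and 57.9 CPM in pre-HE and at 0, 0, 0, 0 and 1.09 CPM in EHT. This was 219 UMIs against 2, a ratio of the summed shares of 435 (95% exact interval 119 to 3617, counting error only). Hey1 and Hes1 fell by 3.83 and 2.21. Rbpj, the DNA-binding partner of all Notch receptors, was higher in EHT, at 42.4, 28, 38.9, 43.5 and 51.5 CPM in pre-HE and 63.6, 63.3, 70.2, 50 and 59.7 CPM in EHT (log2 0.51 ± 0.19, edgeR adjusted p = 0.023). The groups overlapped, and in Meis1-flox/VE-Cre its log2 fold change was -0.32 and was not called.

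The TGF-beta and BMP pathway fell in 16 of 20 tested and rose in 1 (median log2 -2.41), while per cell 12 were lower and 7 higher (median -1.21). Its summed level dropped 5.93-fold, from 4878 to 830 CPM, with 2009 CPM in aEC. Among receptors, Acvrl1 and Eng, the endothelial receptor and co-receptor for BMP9, fell by 4.15 and 2.40. Of the signal transducers, Smad2, Smad3 and Smad5 were not called, with log2 fold changes of 0.16, 0.04 and 0.07. The inhibitory Smads and the Id targets fell, Smad6 by 3.39, Smad7 by 2.83, Id1 by 2.43 and Id3 by 3.62. Tmem100, a BMP target of arterial endothelium, stood at 745, 658, 596, 611 and 676 CPM in pre-HE and at 6.27, 1.25, 0.836, 4.69 and 6.52 CPM in EHT. The ligand Tgfb1 rose from 122, 107, 117, 87 and 154 CPM to 174, 144, 134, 122 and 165 CPM (log2 0.42 ± 0.13), with overlapping groups, while Tgfb2 fell by 4.23.

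Wnt pathway genes fell in 13 of 15 tested and rose in 1 (median log2 -1.33), though per cell the median was -0.04, with 6 lower and 5 higher. Dkk2, a secreted Wnt modulator, fell from 75.6, 88.7, 58.3, 55.3 and 70.8 CPM to 1.93, 0.626, 1.67, 0.391 and 0 CPM (log2 -6.10 ± 0.37), against an aEC mean of 0.386 CPM. The receptors Fzd4 and Fzd6 fell by 2.21 and 4.58. Transcriptional targets such as Axin2 and Lef1 were low in both types, at 7.28 and 5.10 CPM in pre-HE and 0.874 and 2.28 CPM in EHT, and were not tested.

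Guidance genes of the ephrin, semaphorin and Slit families fell in 13 of 13 tested, with the lowest median of all families (log2 -3.80). The summed level dropped 10.8-fold, from 1621 to 155 CPM, with 723 CPM in aEC. Unc5b, a netrin receptor of endothelial tips, fell from 105, 84, 136, 132 and 129 CPM to 2.41, 1.88, 4.18, 4.69 and 2.71 CPM (log2 -5.10 ± 0.24). The arterial ligand gene Efnb2 fell by 4.46 and its venous receptor Ephb4 by 2.08. Slit2 had the smallest change, at 29.6 and 14.9 CPM (log2 -0.79 ± 0.28), and was not called per cell.

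Matrix and basement membrane genes fell in 24 of 25 tested and rose in 1 (median log2 -3.11). Their summed level was 9755, 8730, 9627, 8376 and 8059 CPM in pre-HE and 863, 894, 1034, 1451 and 1150 CPM in EHT, with 4879 CPM in aEC. Htra1, a secreted protease, stood at 304, 210.1, 324, 186 and 45.1 CPM in pre-HE and at 1.93, 0, 1.67, 0.391 and 2.71 CPM in EHT, with WT 5 the lowest pre-HE library. Collagen IV, laminin and nidogen genes fell alike, Col4a1 by 3.11, Lamb1 by 3.18 and Nid1 by 3.64. Elastic fibre genes Fbn1 and Ltbp4, whose aEC means were 1.92 and 0.896 CPM, fell from 173 and 118 CPM to 6.51 and 1.20 CPM. Mmrn1, a multimerin stored in platelets, was the 1 member that rose, from 9.41 to 35 CPM, with overlapping groups.

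The caveola family, membrane pits of endothelium, fell in 8 of 9 tested (median log2 -3.41). Sdpr, which shapes caveolae, fell from 319, 397, 239.9, 353 and 277 CPM to 2.89, 6.26, 3.34, 8.21 and 1.63 CPM (log2 -6.04 ± 0.19), with an aEC mean of 0.872 CPM. Cav1 and Cav2, the coat proteins, fell by 5.28 and 4.26. Pacsin2 was not called, at 23.5 and 30.6 CPM.

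Vasoactive and coagulation genes fell in 10 of 12 tested and rose in 1 (median log2 -2.50), with 9 lower and 3 higher per cell. The summed level dropped 7.17-fold, from 5578 ± 911 to 776 ± 125 CPM, with 1859 CPM in aEC. Edn1, the gene of the vasoconstrictor endothelin, fell from 770.4, 569.5, 642, 1021 and 373 CPM to 27, 25.7, 25.1, 36 and 13 CPM (log2 -4.71 ± 0.13). Ptgs1, cyclooxygenase 1 of platelets and their precursors, rose from 9.21, 0, 0, 0.791 and 19.3 CPM to 110.4, 93.3, 84.4, 59 and 69 CPM (log2 4.27 ± 0.35). The prostacyclin synthase gene Ptgis, which acts after it, fell by 2.99. Vwf, von Willebrand factor, fell by 3.75, and Procr by 0.63 in share while it was called higher per cell.

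**Figure D5:**
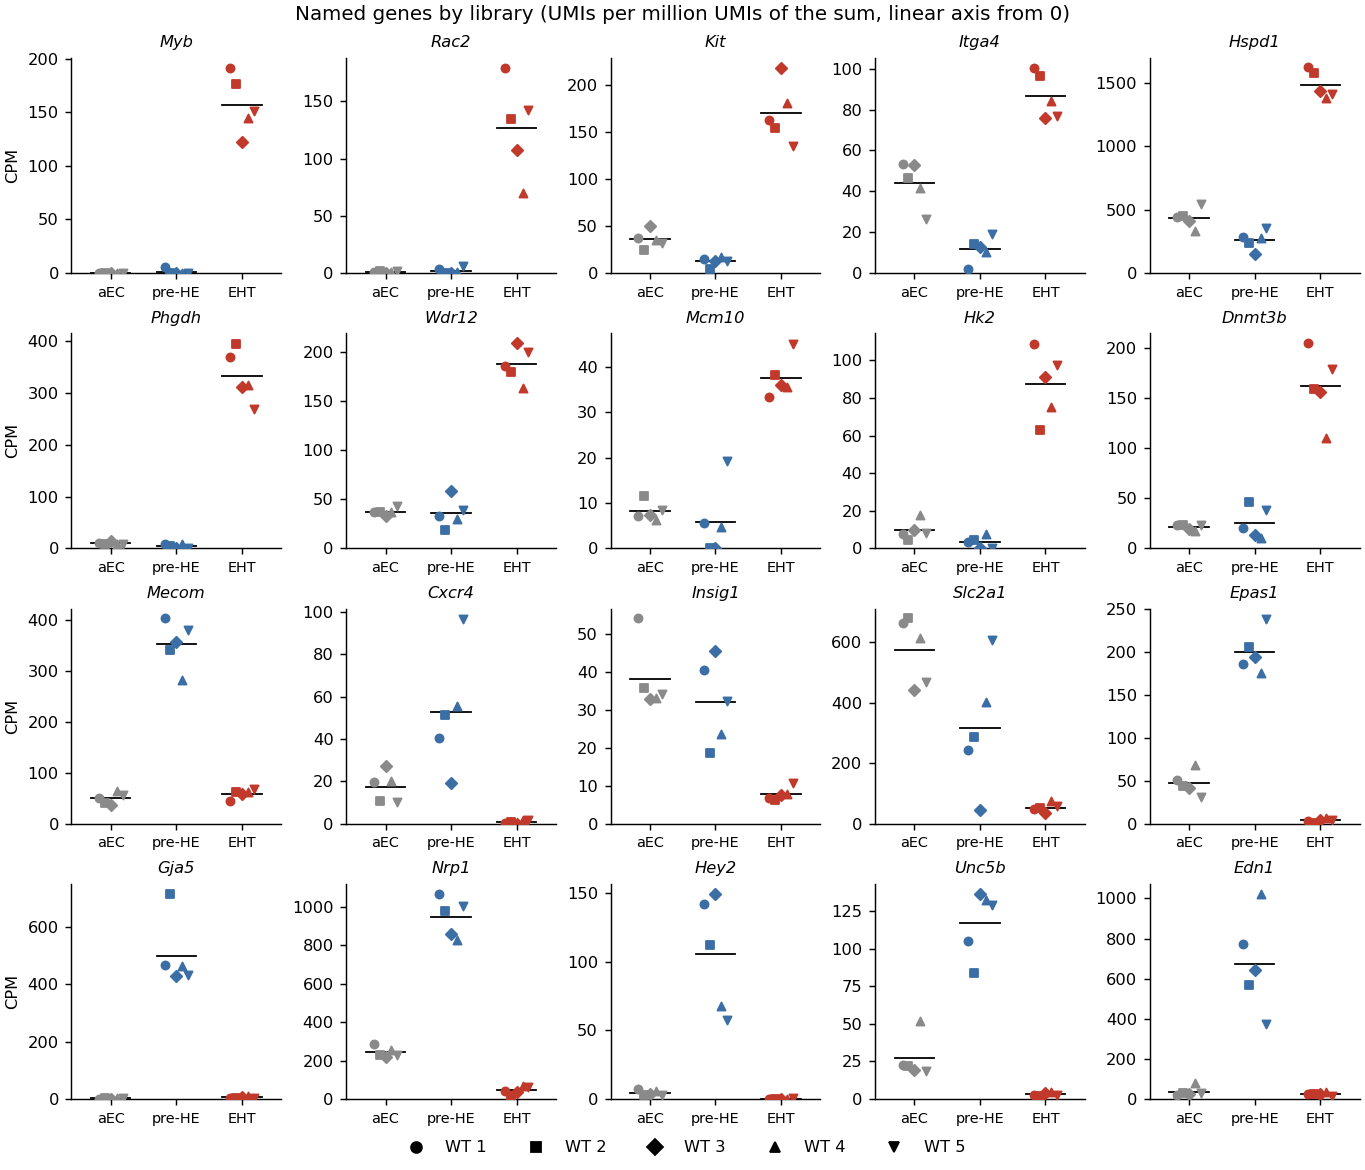
CPM of 20 named genes in aEC, pre-HE and EHT (linear axes from 0), 1 symbol for each WT library and a line at the mean. Genes such as Mecom, Gja5, Hey2 and Edn1 were high in pre-HE only, with Edn1 at 373 to 1021 CPM in pre-HE against 13 to 36 CPM in EHT, while Phgdh and Myb were high in EHT only.

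The same step was fitted in the 3 Meis1-flox/VE-Cre libraries (162 EHT and 77 pre-HE cells), whose cells the WT fit did not use, although the clusters had been drawn from them too. There 4910 genes were tested and 50.1% were called, 26.4% higher and 23.8% lower. In these libraries 24 of 26 ribosome biogenesis genes, 28 of 33 replication genes and 26 of 31 mitotic genes tested rose and none fell, while 18 of 19 matrix genes, 17 of 18 junction genes and 14 of 16 cholesterol synthesis genes fell and none rose. Not every family stood out there. Of 22 TCA cycle genes 5 rose and 1 fell, with a median log2 of 0.35 against 0.44 in WT. Of 14 leukocyte actin genes tested there 9 rose and none fell, with a median of 1.19. The WT median of 2.01 was taken over 18 genes, a different set, so these medians do not compare the genotypes. The log2 fold change in Meis1-flox/VE-Cre was 6.24 for Phgdh, 2.33 for Hspd1, -2.45 for Mecom, -6.36 for Gja5 and -4.54 for Edn1. The 3′ counts do not check the removal of the floxed stretch of Meis1.

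Whether the step differed between the genotypes was tested by an interaction of cell type and genotype in edgeR over all 8 libraries. Of 8025 genes, 3 were called at an adjusted p under 0.1 (0.0374%), all with a lower log2 fold change in Meis1-flox/VE-Cre, and 352 had an unadjusted p under 0.05. DESeq2 called 0. Acta2, smooth muscle actin, was 86.6, 74.7, 201, 362 and 283 CPM in pre-HE and 46.3, 67.6, 40.1, 116 and 88.5 CPM in EHT of WT, and 1391, 694 and 345 CPM in pre-HE and 95.8, 123 and 55.5 CPM in EHT of Meis1-flox/VE-Cre. The interaction was -1.74 ± 0.28 (SE; edgeR adjusted p = 0.00138), and without Meis1-flox/VE-Cre replicate 1 it was -1.17 and was not called (adjusted p = 0.711). Serpina3g, a serine protease inhibitor, had 1 UMI in pre-HE and 315 in EHT of WT, against 6 and 30 UMIs in Meis1-flox/VE-Cre, an interaction of -5.62 ± 1.15 (edgeR adjusted p = 0.0437). It lost its call without either of Meis1-flox/VE-Cre replicates 1 and 3 or without either of WT replicates 3 and 4. Actc1, cardiac actin, had an interaction of -3.99 ± 0.66 that was not called without Meis1-flox/VE-Cre replicate 3 (-2.60, adjusted p = 0.264) or without WT replicate 4 (-3.37, adjusted p = 0.204). Depth moved with genotype, at library medians of 9612 to 14895 UMIs per cell in Meis1-flox/VE-Cre. Only WT 5 was of similar depth, and a fit with it as the only WT library has no WT replicate. The part of depth in these calls was not tested. Too few calls were made to compare families between the genotypes.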

How the data were processed

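CD31+ cells of the AGM at E10.5 were profiled by the authors with 10x 3′ CITE-seq, in 5 libraries of WT and 3 of Meis1-flox/VE-Cre, each a pool of 2-5 embryos. The submitters' processing notes name Cell Ranger 3.0.2 and mm10. The authors deposited raw UMI counts for 28014 genes and 6 antibody tags in 15168 cells after a filter on genes and mitochondrial counts (the fewest genes in a cell was 2001), integrated the libraries and named clusters by hand. Those names were used here. The counts held 0 values that were not whole. A 3′ protocol counts transcript ends, so levels are shares of molecules and do not depend on transcript length.

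Counts were summed over cells by library and type, with at least 10 cells for each sum. Genes were filtered with edgeR 4.0.16 (R 4.3.3), scaled by TMM and tested by the quasi-likelihood test with library as a block, since both types come from the same pool, at a Benjamini-Hochberg adjusted p under 0.1. The study applied that cutoff after a Bonferroni correction, run here as an alternative. The p-values measure the spread between pools. The interaction with genotype used all 8 libraries. Depth in pre-HE sums, 154254 to 1264693 UMIs, limits precision, and intervals and floors (3 counts) cover counting error only. Tags were compared as mean counts per cell with an exact sign-flip permutation test, two-sided. Scrublet, run within scanpy 1.11.5 on each library, marked 83 cells as doublets (0.547%), which were kept and left out in an alternative.

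The members, the 29 gene lists and the 8 marker lists were chosen with earlier results of these data known. From each list the text names the largest rise and largest fall among called members with a mean of at least 32 CPM in the higher type and the same direction in every library. Other members were named for their role after their values were seen. The alternatives were RLE and total-count scaling, DESeq2 1.42.0, no filter on low counts, no replicate block, at least 15 cells for each sum, thinning to equal depth, a Bonferroni threshold, leaving out doublets or each library, and, added after the data were seen, UMIs per cell. Promoter windows came from RefSeq (GRCm38.p6), with 31 of 40 replication genes and 27 of 32 mitotic genes matched. The scripts were checked on simulated data.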

Additional observations from a re-analysis of the deposited data

Results flagged for a closer look

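Of 95 groups of libraries examined, 8 had a highest or lowest library farther from the rest than Dixon's 95% value allows, and chance gives about 1 in 20. In pre-HE, Myb was 5.53 CPM in WT 1 against 0 in the others, Mcm10 19.3 CPM in WT 5 against 0 to 5.53, Cdk6 32.2 CPM in WT 5 against 5.53 to 9.49, Gja5 714 CPM in WT 2 against 428 to 466, and Tead1 123 CPM in WT 3 against 51.5 to 68.2. In EHT, Bub1b was 55.9 CPM in WT 5 against 61.4 to 63.5, H2-D1 75.2 CPM in WT 1 against 45.1 to 52.7, and Hey2 1.09 CPM in WT 5 against 0.

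The step differed between the genotypes by edgeR's interaction test for 3 genes, each with a lower log2 fold change in Meis1-flox/VE-Cre, by -3.99 for Actc1, -1.74 for Acta2 and -5.62 for Serpina3g. Each of these calls was lost with DESeq2 and without at least 1 of the 8 libraries.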

How the results depend on the processing

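In WT 5216 genes were called, against 5260 with RLE scaling, 5187 with total UMIs and 4480 with DESeq2. The number fell to 2112 of 3436 tested after thinning to equal depth and to 2124 with a Bonferroni threshold, and leaving out 1 library gave 4430 (WT 4) to 5208. Thinning tested fewer genes. Without the replicate block 5189 genes were called, 5006 of them shared with the paired fit. In Meis1-flox/VE-Cre 2461 became 1523 with DESeq2 and 1363 after thinning. The 3 interaction calls became 0 with DESeq2, 12 without the filter, and 1 to 6 with 1 library left out.

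UMIs per cell gave 7357 calls and turned the median log2 fold change of cytokine receptors to 1.10, cholesterol synthesis to 0.22 and interferon response to 0.67, and the values of Eif3f to 1.00, Impdh1 to 0.21 and H2-D1 to 0.15. Cytokine receptors turned to 0.050 after thinning, and heme and iron ranged from -0.18 (without WT replicate 4) to 0.17 with 1 library left out. As a share of all tag counts, CD45 turned to -1.79, CD27 to -1.30 and CD44 to -0.64. The EHT cells with both programs were 36.8% at 3000 UMIs and 90.8% unthinned. The named genes had been chosen among called members for the largest change and the same direction in every library. Refits of the same data were therefore likely to keep their direction and call, so the next counts are no test of robustness. Of 533 values of named genes under the other settings, 527 kept direction and side of the threshold and 6 lost the call, Eif3f in 5 and Tgfb1 in 1. The cause was not tested.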
